A study of Anas platyrhynchos with 11 samples.

Results

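Neuropeptide precursors are the genes described here: TAC1, ADCYAP1, VIP, NPY, SST, GAL, CCK and PENK. They were chosen by gene name from the deposited table after their levels in Meissner corpuscles and bill skin had been seen, so the corpuscle and skin values of these 8 genes are given as a description, with no p-value. The gene lists used below were also chosen with earlier results of these data known. Their counts of calls and adjusted p-values are therefore description as well. Of the 8 genes, 7 were in the table of 16823 genes under their own names, and VIP was listed under a locus identifier that carries its RefSeq gene ID. After the filter on low counts 6 of the 8 entered the fit, and SST and PENK did not.

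Neuropeptides are made as long precursors that are cut at basic residues in the secretory pathway, packed with granins into dense-core vesicles and released to act on G protein-coupled receptors, often at some distance from the site of release. In vertebrate skin they are known from sensory and autonomic nerve fibres, and in mammals also from Merkel cells, the epidermal touch cells that contact sensory axons. Substance P, the best known product of TAC1, is a classic peptide of mammalian pain fibres and widens blood vessels when it is released in skin.

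A Meissner corpuscle is a small organ of touch, built of a sensory axon ending wrapped by lamellar cells, which are related to Schwann cells. In the duck, 5 corpuscle libraries were made from corpuscles aspirated by hand, 2 to 10 per pipette, and 6 bill skin libraries from neighbouring skin free of corpuscles. Corpuscles, where numbered or counted below, are libraries and not single corpuscles, so spread among them is spread among libraries. The labels give no strain, age, genotype or treatment for either tissue, and count 3 independent skin isolations but do not say which library came from which, so the p-values below measure only the spread between these libraries. Every corpuscle library was made with a low-input kit (NEBNext Single Cell/Low Input) and every skin library with another (Kapa mRNA Hyper Prep), and the effects of tissue and kit cannot be told apart. Corpuscle RNA was given at 63 to 323 pg per µl with an RNA integrity number of 6.1 to 8.0, and skin RNA without such values.

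Libraries held 5766279 to 11886808 counts in corpuscles and 13263776 to 20925841 in skin, and despite the lower depth 16252 to 16379 genes had a count in each corpuscle library, against 14825 to 15148 in each skin library. The biological coefficient of variation was 64.5% among corpuscles and 24.2% among skin libraries. All 14 Schwann and lamellar cell markers in the table had counts in every library. Their summed levels were 1447 to 3111 CPM (counts per 1e6 on TMM-scaled library sizes) in corpuscles and 2230.1 to 3517 CPM in skin. Of the 13 that entered the fit 1 was called higher and 7 lower in corpuscles, against 33.0% higher and 23.5% lower over all genes tested. The 11 keratinocyte markers in the table summed to 286 to 584 CPM in corpuscles and 1061 to 2529 CPM in skin. As a measure of low-level reads, 39 genes of liver, eye, germ line, pancreas, kidney and heart were followed in the same libraries. Their median of mean levels was 1.40 FPKM (the deposited level per kilobase) in corpuscles and 0.245 FPKM in skin.

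TAC1, which encodes substance P and neurokinin A, was the precursor with by far the most RNA in corpuscles. It stood at 3358, 5806, 5303, 1430.4 and 1378 CPM in corpuscles 1 to 5, against a lowest value of 56.6 CPM, a median of 102 CPM and a highest value of 133 CPM in the 6 skin libraries. Every corpuscle library lay above every skin library, and the lowest corpuscle value was over 10 times the highest skin value. The log2 fold change, corpuscle minus skin, was 5.08 ± 0.42 (SE), and it ran from 4.73 to 5.56 over all alternative fits. In these bulk libraries more cells that make TAC1, more TAC1 RNA per cell and an effect of the library kit cannot be told apart.

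The level of TAC1 was not even among corpuscle libraries. Corpuscles 1, 2 and 3 stood at 3358 CPM or more, while corpuscles 4 and 5 stood at 1378 to 1430.4 CPM. Among all genes of a library, ordered by FPKM, TAC1 took places 10, 5, 11, 43 and 35 in corpuscles 1 to 5 and places between 513 and 1579 in skin. It was thus a leading transcript of corpuscles and a moderately abundant one of skin.

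ADCYAP1, which encodes the pituitary adenylate cyclase-activating peptide PACAP, came next. It measured 77.4, 103, 37.7, 159 and 114 CPM in corpuscles 1 to 5, against 13.5, 17.9 and 22.7 CPM as the lowest, median and highest skin values. The tissues did not overlap, and the log2 fold change was 2.46 ± 0.33 (SE). Corpuscle 4, low in TAC1, was the highest in ADCYAP1, and corpuscle 3, high in TAC1, was the lowest. The ratio of TAC1 to ADCYAP1 CPM was therefore 43.4, 56.4, 141, 8.98 and 12.1 in corpuscles 1 to 5, and 3.13 to 9.77 in skin. This ratio is not per length, so it compares libraries and not the levels of both genes.

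**Figure D1:**
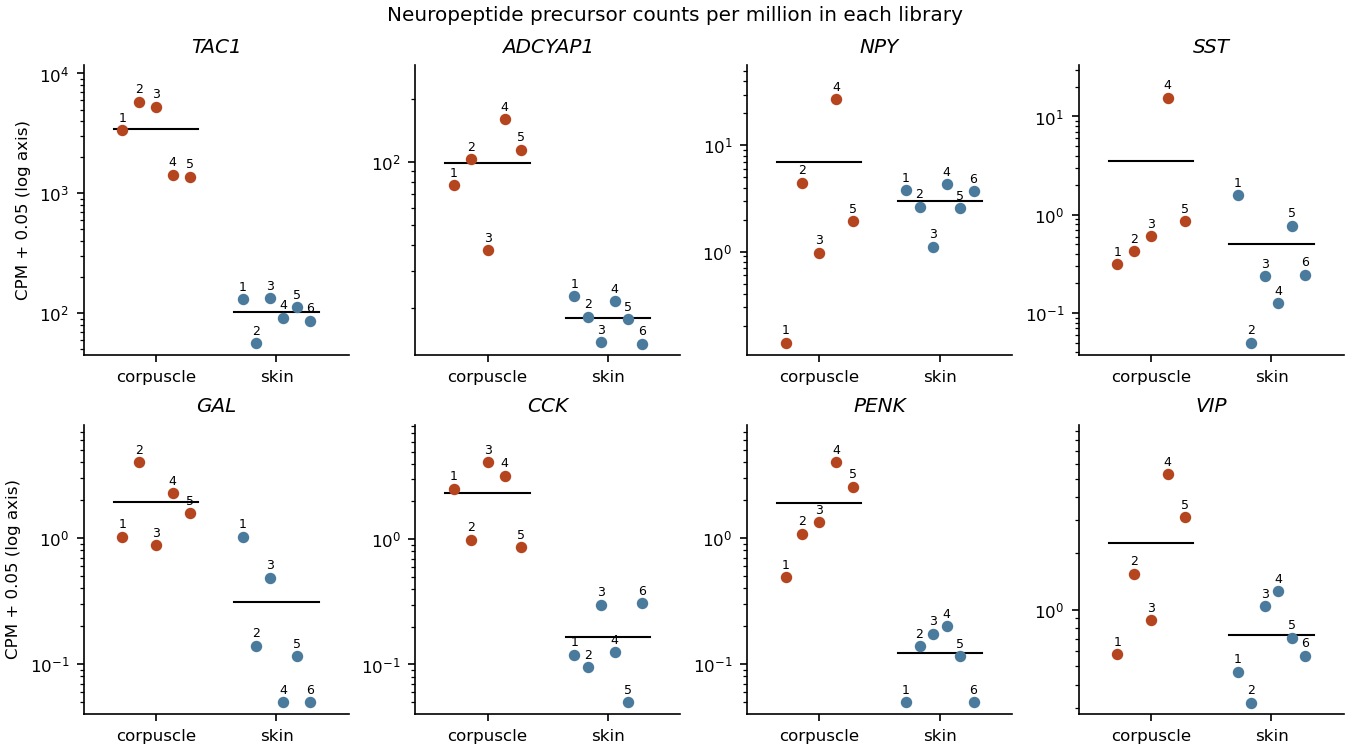
CPM of the 8 neuropeptide precursors on log axes, with an offset of 0.05 CPM so that zeros can be drawn; each numbered point is 1 library, corpuscles left of skin, and black bars are means. TAC1, ADCYAP1, CCK and PENK do not overlap between tissues, while NPY, SST, GAL and VIP do.

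The other 6 precursors were low in both tissues. CCK, the precursor of cholecystokinin, a gut hormone and brain peptide, had 28, 10, 44, 20 and 9 reads in corpuscles 1 to 5, against 0 to 4 reads in each skin library. That is 2.48, 0.941, 4.08, 3.17 and 0.810 CPM in corpuscles 1 to 5, against 0, 0.0727 and 0.260 CPM as the lowest, median and highest skin values. No skin library reached the lowest corpuscle, and the log2 fold change was 4.20 ± 0.68 (SE).

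PENK, the precursor of the enkephalins, had 5, 11, 14, 25 and 28 reads in corpuscles 1 to 5, against 0 to 2 reads in each skin library. On the CPM scale it stood at 0.443, 1.04, 1.30, 3.96 and 2.52 in corpuscles 1 to 5, against 0, 0.0780 and 0.152 as the lowest, median and highest skin values. The tissues did not overlap. The gene fell under the filter on low counts, and a fit of all genes with at least 1 count gave it a log2 fold change of 4.40 ± 0.75 (SE).

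GAL, the precursor of galanin, a peptide of sensory neurons and endocrine cells, stood at 0.975, 3.95, 0.834, 2.22 and 1.53 CPM in corpuscles 1 to 5, against 0, 0.0780 and 0.975 CPM as the lowest, median and highest skin values. Skin 1, with 14 reads, lay within the corpuscle range, and the other skin libraries had 0 to 7 reads. The log2 fold change was 2.84 ± 0.83 (SE), and 2.19 without skin 5 and 6.

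VIP, whose peptide is a close relative of PACAP and shares receptors with it, stood at 0.532, 1.51, 0.834, 5.23 and 3.06 CPM in corpuscles 1 to 5, against 0.270, 0.591 and 1.21 CPM as the lowest, median and highest skin values. Corpuscles 1 and 3 lay within the skin range, and corpuscles 2, 4 and 5 above it. The log2 fold change of 1.69 ± 0.60 (SE) was 0.50 without corpuscles 4 and 5.

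NPY, the precursor of neuropeptide Y, a peptide of sympathetic nerve fibres, stood at 0.0887, 4.42, 0.927, 27.2 and 1.89 CPM in corpuscles 1 to 5, against 1.06, 3.12 and 4.24 CPM as the lowest, median and highest skin values. Corpuscle 4 was far above every skin library, and corpuscles 1 and 3 lay below every skin library. Its log2 fold change was 1.19 ± 0.87 (SE) with all libraries and -0.70 without corpuscle 4. It was negative with a replicate block as well and positive in 19 of 22 fits, so its sign was not stable.

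SST, the precursor of somatostatin, which dampens hormone and transmitter release, had 3, 4, 6, 98 and 9 reads in corpuscles 1 to 5, against 0 to 22 in the skin libraries. Its CPM values were 0.266, 0.376, 0.556, 15.5 and 0.810 in corpuscles 1 to 5, against 0, 0.191 and 1.53 as the lowest, median and highest in skin. Corpuscle 4 held 88.5% of the summed corpuscle CPM, and the other corpuscles lay within the skin range. In the fit without a filter the log2 fold change was 2.80 ± 1.12 (SE).

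edgeR's quasi-likelihood test on all 14638 genes, at a Benjamini-Hochberg adjusted p of 0.05, called 5 of the 6 fitted precursors higher in corpuscles (TAC1, ADCYAP1, CCK, GAL and VIP) and 0 lower. VIP was fitted but not called without corpuscle 4, without corpuscle 5, without both, without skin 2, without skin 6, without skin 5 and 6 and with a replicate block. Over all genes tested 33.0% were called higher and 23.5% lower, 56.4% in either direction, and the median log2 fold change was 0.18. Without overlap between tissues and higher in corpuscles were 4 of the 8 precursors, among them PENK, which was not tested. Of all genes tested this held for 22.3% (41.3% without overlap in either direction). Nothing is read from these counts, because the 8 genes were chosen on the same contrast. The authors' deposited table, which gives skin relative to corpuscle, so that a negative value means higher in corpuscles, lists a log2 fold change of -5.01 for TAC1 and -1.09 for NPY.

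**Figure D2:**
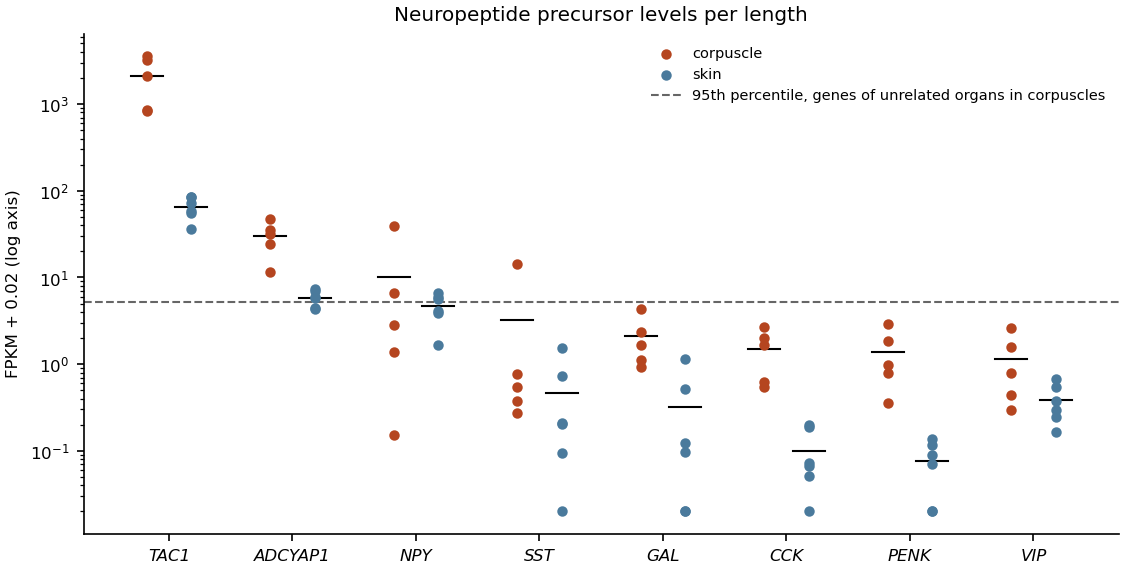
Deposited FPKM of the 8 precursors on a log axis, with an offset of 0.02 FPKM; points are single libraries, corpuscles left of skin, black bars are means, and the dashed line is the 95th percentile of the unrelated organ genes in corpuscles. TAC1 is first in 11 of 11 libraries and stands apart from ADCYAP1 in both tissues.

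Levels of different genes can be compared only per length, as FPKM. In corpuscles TAC1 averaged 2110.4 ± 1277 FPKM (SD, n = 5), and its mean was 70.1 times that of ADCYAP1 at 30.1 ± 13.4 FPKM. There followed NPY at 10.0 ± 16.6, SST at 3.21 ± 6.12, GAL at 2.07 ± 1.38, CCK at 1.48 ± 0.912, PENK at 1.35 ± 1.00 and VIP at 1.12 ± 0.954 FPKM in corpuscles. Except for TAC1 and ADCYAP1, neighbours in this order had overlapping ranges. Most of the mean of NPY and of SST came from corpuscle 4.

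In skin TAC1 averaged 65.5 ± 18.9 FPKM (SD, n = 6), and its mean was 11.3 times that of ADCYAP1 at 5.79 ± 1.25 FPKM. NPY stood at 4.63 ± 1.80, SST at 0.446 ± 0.578, VIP at 0.363 ± 0.192, GAL at 0.300 ± 0.443, CCK at 0.0795 ± 0.0751 and PENK at 0.0560 ± 0.0490 FPKM in skin. There the ranges of TAC1 and ADCYAP1, and those of NPY and SST, did not overlap, and the ranges of all other neighbours did. TAC1 made up 88.4% to 99.4% of the summed FPKM of the 8 precursors in corpuscles and 77.9% to 91.9% in skin. Together with the 51 further precursor genes in the table the picture differed more, with a TAC1 share of 73.2% to 95.9% in corpuscles and 22.4% to 34.2% in skin.

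The 39 genes of unrelated organs give a scale for the low values. Their 95th percentile in corpuscles was 5.24 FPKM, and their highest was CRYAA, a lens crystallin, at 16.1 FPKM. TAC1 and ADCYAP1 lay above that highest gene. NPY lay above the 95th percentile through corpuscle 4, and SST, GAL, CCK, PENK and VIP lay under it. In skin the 95th percentile of the unrelated genes was 7.48 FPKM and their highest gene, APOA1, stood at 110.8 FPKM. Whether APOA1 measures low-level reads in skin was not tested. There TAC1 alone lay above the 95th percentile, and no precursor lay above the highest gene. Of the 30 unrelated genes that entered the fit, 24 were called higher and 2 lower in corpuscles, with a median log2 fold change of 2.49. Over all genes tested 33.0% were called higher and 23.5% lower. The part of such low-level reads in the values of CCK, PENK, GAL, VIP and SST was not tested.

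Corpuscles 4 and 5, low in TAC1, differed from corpuscles 1 to 3 in the markers of several cell types. The 17 Merkel cell markers in the table summed to 5218, 6071, 10733, 1508 and 1551 CPM in corpuscles 1 to 5, against 533 to 866 CPM in skin, with 13 of the 17 called higher and 0 lower (33.0% and 23.5% over all genes tested) and none at 0 in either tissue. The 19 sensory neuron markers in the table summed to 1304, 1476, 1958, 649 and 394 CPM in corpuscles 1 to 5, against 249.9 to 295 CPM in skin, with 10 of the 18 tested called higher and 3 lower. Like TAC1, both sums were lower in corpuscles 4 and 5 than in corpuscles 1 to 3. The 11 fibroblast markers went the other way among corpuscles, with sums of 27080, 15671, 14066, 45605 and 41865 CPM in corpuscles 1 to 5, against 49978 to 81467 CPM in skin, and 0 of 11 called higher and 7 lower. The 11 autonomic neuron markers summed to 94.4 to 257 CPM in corpuscles, highest in corpuscle 4, and 141 to 246 CPM in skin, with 5 of the 8 tested called higher and 1 lower and with PHOX2A at 0 in every skin library. The 11 endothelial markers summed to 80.7 to 149.8 CPM in corpuscles and 1266 to 1711 CPM in skin, with 0 called higher and 10 lower. The 10 immune cell markers in the table summed to 81.2 to 239 CPM in corpuscles, highest in corpuscle 3, and 60.2 to 98.4 CPM in skin, with 4 of the 9 tested called higher and 1 lower. Of the 30 unrelated organ genes tested, 24 were called higher and 2 lower. In corpuscles the median level was 1.18 FPKM for autonomic neuron, 1.55 FPKM for sensory neuron and 15.9 FPKM for Merkel cell markers. It was 1.40 FPKM for unrelated organ genes. The part of any of these cell types in the precursor levels was not tested.

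**Figure D3:**
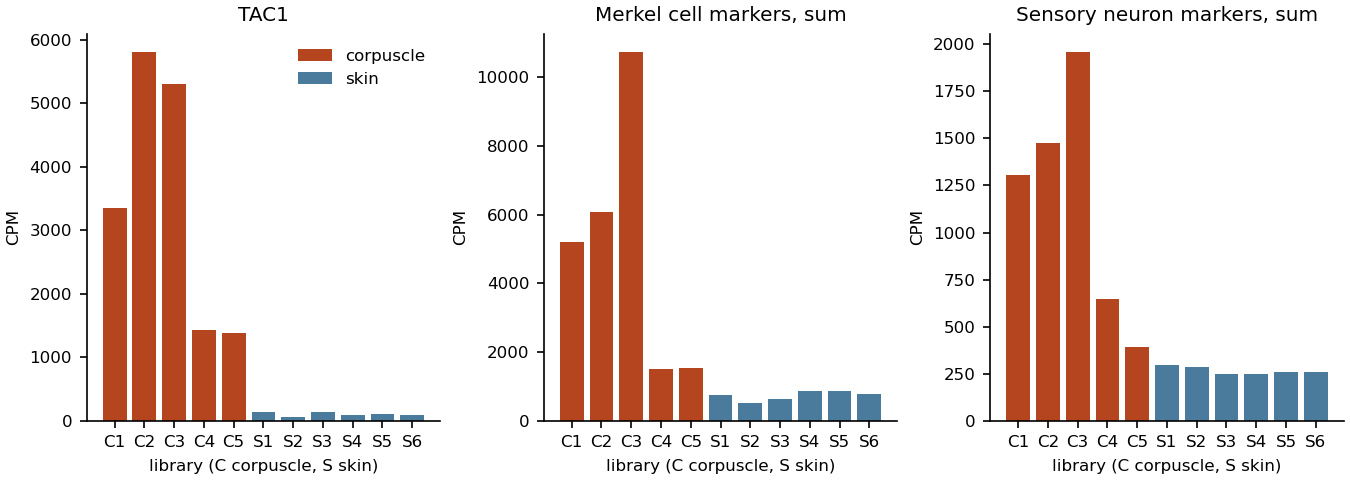
Bars give the CPM of TAC1 and the summed CPM of the Merkel cell and sensory neuron markers in each library on linear axes from 0, corpuscles (C) left of skin (S). Corpuscles 4 and 5 are below corpuscles 1 to 3 in TAC1 and in the Merkel cell and sensory neuron sums.

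The genes whose profile over the 11 libraries lay nearest to that of TAC1 were PCP4, a small calmodulin-binding protein, GNG13, a G protein gamma subunit, KCNJ6, an inwardly rectifying potassium channel, the unnamed LOC119716805 and SPINK2, a serine protease inhibitor. Likeness was the root mean square difference of centred log2(CPM + 1) values, which was 0.31, 0.31, 0.39, 0.39 and 0.39 for these 5 genes and had a median of 2.60 over all genes compared. PCP4 stood at 165, 378, 288, 125 and 75.8 CPM in corpuscles 1 to 5 and at 3.69 to 11.3 CPM in skin. It had the same 3 corpuscles on top as TAC1, which follows from its choice by likeness over these libraries. Of the 5 other precursors in the fit ADCYAP1 was nearest to TAC1, at place 1269 of 14637 genes, and NPY was farthest, at place 9500, while SST and PENK were not compared. The list of nearest genes depended on the scale, as 1 of the 5 stayed among the nearest 5 with log2(CPM + 0.25), and 2 of the 5 did without corpuscles 4 and 5.

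Further peptide precursors moved in both directions. Of 51 in the table, 31 entered the fit, of which 15 rose, 6 fell and 10 did not pass the test, against 33.0% higher and 23.5% lower over all genes tested. Their median log2 fold change was 1.48, against 0.18 over all genes and 2.49 for unrelated organ genes. Some that rose, CRH, UCN3 and PNOC among them, passed the filter on low counts through the corpuscles alone. The filter thus fixed the direction of their calls. The list was chosen with earlier results of these data known, so nothing is read from these counts. CRH, the precursor of corticotropin-releasing hormone, rose to 2.39, 12.3, 6.30, 1.90 and 6.48 CPM in corpuscles 1 to 5, against 0 to 0.152 CPM in skin (log2 fold change 6.63 ± 0.82 (SE), edgeR adjusted p = 8.9e-06). That fold change was 7.31 without skin 2 and 6.02 without skin 5 and 6. UCN3, a peptide of the same family, had 94 reads over the corpuscles and 0 over the skin libraries, and was at least 60.2-fold higher in corpuscles with the skin libraries set at 3 counts in all. PNOC, the precursor of nociceptin, rose with 1.22 to 4.75 CPM in corpuscles and 0 to 0.180 CPM in skin, and its log2 fold change of 4.95 was 4.05 without corpuscles 4 and 5.

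The precursors that fell most were NTS, NPW and EDN3. NTS, the precursor of neurotensin, fell to 1.15, 0.659, 7.78, 7.92 and 1.08 CPM in corpuscles 1 to 5, against 21.1, 51.9 and 107 CPM as the lowest, median and highest skin values (log2 fold change -3.81 ± 0.72 (SE), edgeR adjusted p = 0.00035). EDN3, the precursor of endothelin 3, a growth factor for pigment cells, stood at 6.21 to 40.9 CPM in corpuscles and 81.6 to 119.9 CPM in skin. NPW, the precursor of neuropeptide W, stood at 0.158 to 0.926 CPM in corpuscles and 1.25 to 6.34 CPM in skin.

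By FPKM the most abundant of the further precursors in corpuscles were APELA, a ligand of the apelin receptor, and CARTPT, the precursor of CART peptides. APELA averaged 27.5 ± 18.6 FPKM in corpuscles and 17.5 ± 2.85 FPKM in skin (SD, n = 5 and 6), with an edgeR adjusted p of 0.23, which was 0.0062 without corpuscle 1. CARTPT rose, at 21.0, 42.0, 19.3, 5.70 and 3.78 CPM in corpuscles 1 to 5 and 0.651 to 5.44 CPM in skin (log2 fold change 2.53, edgeR adjusted p = 0.0027, and 1.82 with a replicate block). Corpuscles 4 and 5 were its lowest, and corpuscle 5 lay within the skin range. CARTPT, GHRL and NPB exceeded the 95th percentile of the unrelated organ genes in corpuscles, and the other 12 of the 15 risen precursors did not.

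Of the enzymes that cut and trim precursors, 6 of 21 in the fit rose, 6 fell and 9 did not pass the test, with a median log2 fold change of -0.26. The 12 calls among 21 are near the 56.4% called over all genes tested. PCSK2, a prohormone convertase of neuroendocrine granules, fell to 4.88, 17.4, 2.69, 4.91 and 4.41 CPM in corpuscles 1 to 5, against 27.8 to 51.6 CPM in skin (log2 fold change -2.36 ± 0.46 (SE), edgeR adjusted p = 0.00051, and -3.07 without corpuscle 2). PCSK1, its companion convertase, rose with 0.532, 0.659, 7.51, 34.8 and 33.6 CPM in corpuscles 1 to 5, against 0.530 to 3.55 CPM in skin (edgeR adjusted p = 0.0051). Corpuscles 4 and 5, the lowest in TAC1, were the highest in PCSK1, and without them its log2 fold change of 3.45 was 1.04 with an adjusted p of 0.28. With a replicate block it was 2.48 with an adjusted p of 0.15.

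Other processing genes differed as well. PCSK4, a convertase of germ cells in mammals, had 150 reads over the corpuscles and 3 over skin, a ratio of 96.1 with a counting interval of 32.3 to 471, and a log2 fold change of 6.37 in the fit that was 7.31 without skin 1 and 5.61 without corpuscles 4 and 5. PCSK4 stood at 0.637 to 3.11 FPKM in corpuscles, where the unrelated organ genes had a median of 1.40 FPKM. It passed the filter on low counts through the corpuscles alone, so the filter fixed the direction of its call. CPD, carboxypeptidase D, fell to 6.49 to 26.4 CPM in corpuscles, against 52.9 to 97.2 CPM in skin. FURIN, the general convertase of the late Golgi, fell to 2.92 to 12.2 CPM in corpuscles, against 14.8 to 31.4 CPM in skin. SEC11C, a catalytic subunit of the signal peptidase, rose to 159 to 236 CPM in corpuscles, against 54.4 to 77.8 CPM in skin (edgeR adjusted p = 5.5e-06). CTSL, cathepsin L, was the most abundant by FPKM and rose by 0.87 on the log2 scale, with an edgeR adjusted p of 0.003 and one of 0.054 with a replicate block. Of the 6 risen processing genes, 4 exceeded the 95th percentile of the unrelated organ genes in corpuscles. PCSK1 and PCSK4 did not.

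Among granins and other dense-core vesicle genes, 12 of 19 in the fit rose, 3 fell and 4 did not pass the test, against 33.0% higher and 23.5% lower over all genes tested and 24 of 30 higher among unrelated organ genes. Their median log2 fold change was 1.32, against 0.18 over all genes and 2.49 for unrelated organ genes. The list was chosen with earlier results of these data known, so nothing is read from these counts. CHGB, chromogranin B, stood at 38177, 68294, 50156, 12589 and 39195 CPM in corpuscles 1 to 5, against 738, 1353 and 1548 CPM as the lowest, median and highest skin values (log2 fold change 5.02 ± 0.38 (SE), edgeR adjusted p = 1.4e-07). CHGA, chromogranin A, rose to 704 to 5761 CPM in corpuscles, against 85.7 to 319 CPM in skin, and SCG2, secretogranin 2, to 67.8 to 230.2 CPM in corpuscles, against 5.84 to 10.4 CPM in skin. The log2 fold change of CHGA was 3.48, and 2.70 without corpuscle 2. As for TAC1, CHGA was lowest in corpuscles 4 and 5, and CHGB was lowest in corpuscle 4 but not in corpuscle 5.

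The 3 vesicle genes that fell were CADPS2, ARFIP1 and RAB2A. CADPS2, which primes dense-core vesicles for release, stood at 5.93 to 31.7 CPM in corpuscles and 34.9 to 51.4 CPM in skin. ARFIP1, arfaptin 1, stood at 8.37 to 61.9 CPM in corpuscles and 123 to 199 CPM in skin. RAB2A, a small GTPase of early secretory membranes, overlapped between tissues, and its edgeR adjusted p of 0.0089 was 0.0502 when genes under a mean of 5 CPM were left out. RAB3C, 1 of the 12 that rose, is also on the Merkel cell marker list. Of these 12 genes, 7 exceeded the 95th percentile of the unrelated organ genes in corpuscles, CHGB, CHGA and SCG2 among them. The other 5 did not.

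**Figure D4:**
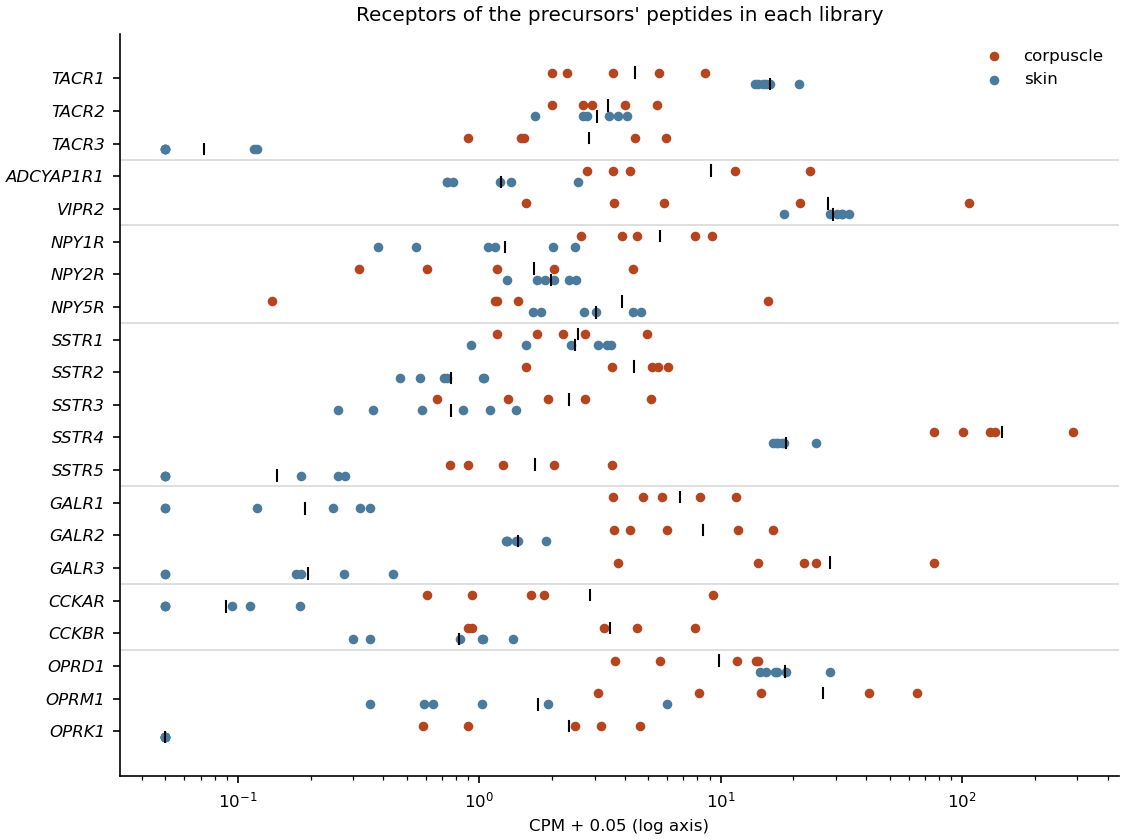
CPM of the receptors of the member peptides on a log axis with an offset of 0.05 CPM, with each library a point, corpuscles above skin, grouped by ligand, and black bars at the means. TACR1 and OPRD1 are lower in every corpuscle than in every skin library. SSTR2, SSTR4, GALR1, GALR2, GALR3, ADCYAP1R1, NPY1R and TACR3 are higher in every corpuscle. So are SSTR5, CCKAR and OPRK1, which did not enter the fit.

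The receptors of these peptides include 21 genes in the table, of which 18 entered the fit. Of these 11 rose, 1 fell and 6 did not pass the test, against 33.0% higher and 23.5% lower over all genes tested. Their median log2 fold change of 2.15 lay above the 0.18 of all genes and below the 2.49 of unrelated organ genes. Some that rose, TACR3, GALR1 and GALR3 among them, had 0 to 6 reads in each skin library. They passed the filter on low counts through the corpuscles alone, so the filter fixed the direction of their calls. The list was chosen with earlier results of these data known, so nothing is read from these counts. The only receptor that fell was TACR1, which prefers substance P. It stood at 1.95, 2.26, 3.52, 8.55 and 5.49 CPM in corpuscles 1 to 5, against 13.9, 15.2 and 21.0 CPM as the lowest, median and highest skin values (log2 fold change -1.88 ± 0.41 (SE), edgeR adjusted p = 0.0013). Without corpuscles 4 and 5 its log2 fold change was -2.62. The tissue with more TAC1 RNA held less TACR1 RNA, and the corpuscles lowest in TAC1 were the highest in TACR1. Corpuscles 4 and 5 were also the highest in ADCYAP1R1, VIPR2, SSTR4, SSTR5, NPY1R, NPY2R, GALR1 and GALR2. They were the lowest in OPRM1, OPRD1 and GALR3. TACR1 stood at 0.3834 to 1.604 FPKM in corpuscles, where the unrelated organ genes had a median of 1.40 FPKM. Any relation of TAC1 to TACR1 among corpuscles was not tested.

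TACR2, which prefers neurokinin A, did not pass the test, at 1.95 to 5.41 CPM in corpuscles and 1.65 to 4.05 CPM in skin (edgeR adjusted p = 0.76). TACR3, which prefers the product of TAC3, had 127 reads over the corpuscles and 2 over skin, a ratio of 122 with a counting interval of 33.1 to 1018.7. It stood at 0.251 to 1.69 FPKM in corpuscles, where the unrelated organ genes had a median of 1.40 FPKM.

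The PACAP-preferring receptor ADCYAP1R1 rose, with 2.75, 4.14, 3.52, 11.4 and 23.4 CPM in corpuscles 1 to 5, against 0.682, 0.948 and 2.51 CPM as the lowest, median and highest skin values (log2 fold change 2.93 ± 0.61 (SE), edgeR adjusted p = 0.00077). Corpuscles 4 and 5 were its highest, and the log2 fold change was 1.55 without both and 2.19 without corpuscle 5. VIPR2, which binds VIP and PACAP alike, stood at 1.51, 3.58, 5.74, 106 and 21.2 CPM in corpuscles 1 to 5, against 18.3 to 33.8 CPM in skin. Corpuscles 1 to 3 lay below every skin library and corpuscle 4 above every one. Its log2 fold change was -0.07 with an edgeR adjusted p of 0.94, while it was -1.86 with an adjusted p of 0.014 without corpuscle 4, and -3.01 with an adjusted p of 8.3e-05 without corpuscles 4 and 5.

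Among somatostatin receptors, which inhibit the cells that carry them, SSTR4 was the most abundant by FPKM. It stood at 130.5, 76.3, 101, 288 and 136 CPM in corpuscles 1 to 5, against 16.3, 17.6 and 24.6 CPM as the lowest, median and highest skin values (log2 fold change 2.98 ± 0.32 (SE), edgeR adjusted p = 3.0e-06). The tissues did not overlap, and SSTR4 and SST were both highest in corpuscle 4. SSTR2 rose with 1.51 to 6.02 CPM in corpuscles and 0.418 to 0.998 CPM in skin. SSTR3 rose with an edgeR adjusted p of 0.025, which was 0.079 without corpuscle 4, 0.05 without corpuscle 3 and 0.087 without corpuscles 4 and 5. SSTR1 did not pass the test, and SSTR5, with 74 reads over the corpuscles and 8 over skin, did not enter the fit.

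Galanin receptors all rose. GALR3 stood at 22.0, 76.3, 24.6, 14.2 and 3.69 CPM in corpuscles 1 to 5, against 0, 0.128 and 0.390 CPM as the lowest, median and highest skin values (log2 fold change 7.46 ± 0.87 (SE), edgeR adjusted p = 5.4e-06), and the fold change was 6.65 without corpuscle 2. Its order among corpuscles had corpuscles 4 and 5 at the bottom, as for TAC1. GALR1 stood at 3.52 to 11.6 CPM in corpuscles and 0 to 0.303 CPM in skin, and GALR2 at 3.55 to 16.5 CPM in corpuscles and 1.24 to 1.84 CPM in skin. Both were highest in corpuscle 4, and the log2 fold change of GALR2 was 2.57, and 1.69 without corpuscles 4 and 5.

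Of the opioid receptors, on which the enkephalins of PENK act, the mu receptor OPRM1 rose. It stood at 41.2, 64.8, 14.6, 8.08 and 3.06 CPM in corpuscles 1 to 5, against 0.303, 0.785 and 5.92 CPM as the lowest, median and highest skin values (log2 fold change 3.95 ± 0.85 (SE), edgeR adjusted p = 0.0011). Skin 3 was the highest skin library and lay above corpuscle 5, so the tissues overlapped. The log2 fold change was 4.94 without skin 3, 3.29 without corpuscle 2 and 4.55 without corpuscles 4 and 5. The delta receptor OPRD1 stood at 14.2, 11.7, 14.0, 5.54 and 3.60 CPM in corpuscles 1 to 5, against 14.4 to 28.2 CPM in skin. No overlap was seen for it, but the edgeR adjusted p was 0.063, which was 0.038 without corpuscle 1 and 0.042 without corpuscle 3. The kappa receptor OPRK1 had 105 reads over the corpuscles and 0 over skin, at least 67.3-fold higher in corpuscles with skin set at 3 counts in all, and did not enter the fit. OPRK1 stood at 0.203 to 1.67 FPKM in corpuscles, where the unrelated organ genes had a median of 1.40 FPKM.

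Receptors for NPY and CCK were low. NPY1R rose with 2.59 to 9.19 CPM in corpuscles and 0.331 to 2.44 CPM in skin (log2 fold change 2.17, edgeR adjusted p = 0.0028), and the fold change was 1.56 without corpuscles 4 and 5. NPY2R and NPY5R did not pass the test, with edgeR adjusted p of 0.70 and 0.71. NPY2R was called lower without corpuscles 4 and 5 (log2 fold change -1.56, adjusted p = 0.015). NPY5R, with 173 of its 208 corpuscle reads in corpuscle 5, was called lower without corpuscle 5 (-1.69, adjusted p = 0.030) and without corpuscles 4 and 5 (-1.78, adjusted p = 0.034). CCKBR, the CCK receptor of brain and stomach, rose with 0.847 to 7.76 CPM in corpuscles and 0.249 to 1.32 CPM in skin, and its edgeR adjusted p of 0.0087 was 0.076 without corpuscles 4 and 5 and 0.087 with a replicate block. CCKAR, the CCK receptor of gallbladder and pancreas, had 144 reads over the corpuscles, 98 of them in corpuscle 2, and 4 over skin, and did not enter the fit. Of the 21 receptors in the table, OPRM1 and SSTR4 alone exceeded the 95th percentile of the unrelated organ genes in corpuscles. The other 9 of the 11 risen receptors did not, and neither did OPRK1, SSTR5 and CCKAR.

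Of the peptidases that break down released peptides, 4 of 17 in the fit rose, 2 fell and 11 did not pass the test, against 33.0% higher and 23.5% lower over all genes tested. Their median log2 fold change was 0.04, against 0.18 over all genes. MME, neprilysin, which degrades substance P and enkephalins, fell to 74.0, 17.9, 92.9, 53.4 and 23.6 CPM in corpuscles 1 to 5, against 98.6, 178 and 203 CPM as the lowest, median and highest skin values (log2 fold change -1.61 ± 0.39 (SE), edgeR adjusted p = 0.0027). ANPEP, aminopeptidase N, fell to 5.17 to 61.4 CPM in corpuscles, against 73.5 to 184 CPM in skin, by a log2 fold change of -2.05 that was -2.98 without corpuscles 4 and 5. Both enzymes were lower in every corpuscle than in every skin library.

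The peptidases that rose included MMEL1, ECE2 and THOP1. MMEL1, a relative of neprilysin, stood at 6.68 to 54.4 CPM in corpuscles and 2.78 to 4.46 CPM in skin, and its log2 fold change of 2.57 was 1.89 without corpuscle 3. ECE2, an endothelin-converting enzyme, stood at 1.86 to 10.4 CPM in corpuscles and 0.130 to 1.25 CPM in skin, and its log2 fold change of 2.98 was 2.35 without corpuscle 4. THOP1, thimet oligopeptidase, stood at 51.5 to 180.4 CPM in corpuscles and 45.4 to 60.5 CPM in skin and overlapped, with an edgeR adjusted p of 0.0029. Of the 4 risen peptidases THOP1 alone exceeded the 95th percentile of the unrelated organ genes in corpuscles. PREP, prolyl endopeptidase, stood at 48.7 to 89.9 CPM in corpuscles and 43.0 to 48.9 CPM in skin and had an edgeR adjusted p of 0.06, which was 0.037 with RLE size factors, 0.028 without corpuscle 3 and 0.046 without corpuscle 4.

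**Figure D5:**
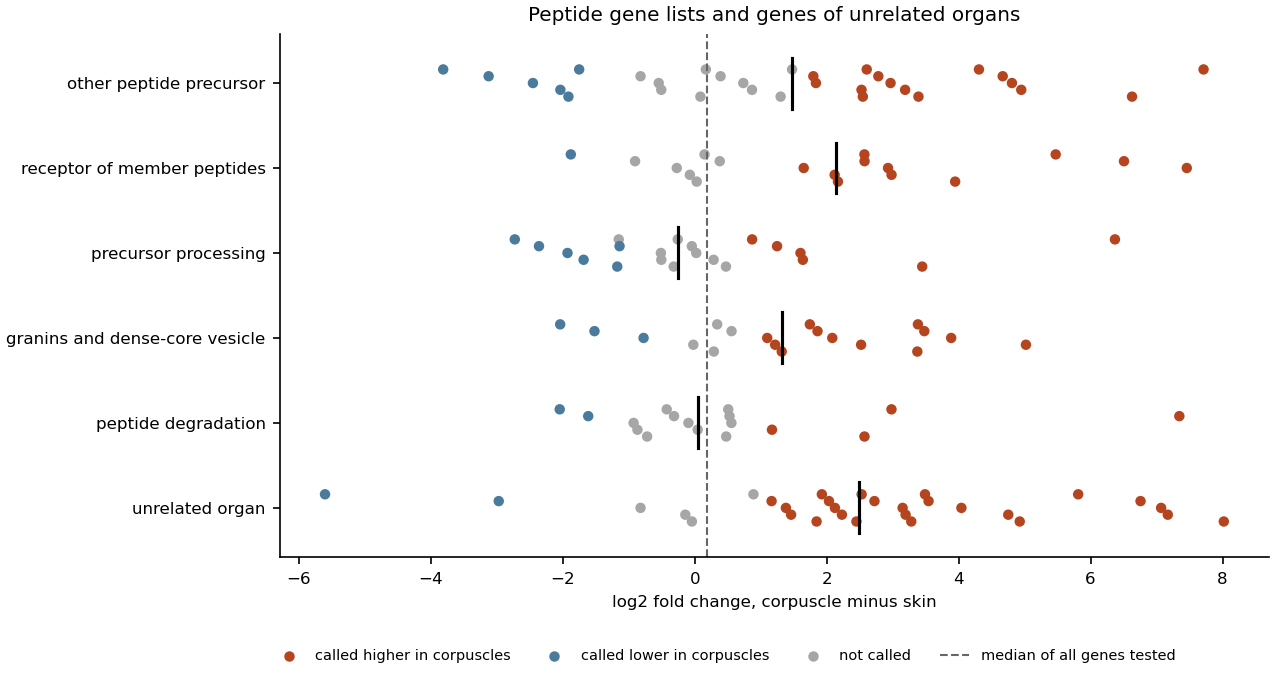
Log2 fold change, corpuscle minus skin, of each fitted gene of the peptide lists and of the unrelated organ genes; colours give the edgeR call, the black bar is the list's median and the dashed line the median of all genes tested, 0.18. The median is 1.48 for other precursors, 2.15 for receptors, 1.32 for granins and dense-core vesicles and 2.49 for unrelated organ genes. It is -0.26 for precursor processing and 0.04 for peptide degradation.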

How the data were processed

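RNA was sequenced from 5 Meissner corpuscle and 6 bill skin libraries of the duck. The authors deposited raw read counts, which are whole numbers. The deposited normalized counts are a signal per gene, each being the count divided by 1 factor per library. The FPKM values deposited by the authors equal that signal per kilobase of 1 length per gene. The deposited table also holds the authors' log2 fold changes, skin relative to corpuscle, and the authors' p-values. The submitters' processing notes name STAR 2.7.7a, Subread 2.0.1, featureCounts, Trimmomatic 0.39, CASAVA 1.8.2 and edgeR 3.38.4 without saying what each was used for. The genome build, annotation and use of strand are not given in the sources used here, so reads of overlapping or antisense genes cannot be told apart.

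Of 4214 locus identifiers 3196 were found in a RefSeq table of the Pekin duck through their gene ID, which gave 603 of them a symbol, VIP among them. The main test was the robust quasi-likelihood test of edgeR 4.0.16 (R 4.3.3) between corpuscle and skin, after filterByExpr and with TMM factors, at a Benjamini-Hochberg threshold of 0.05 over all genes. CPM use TMM-scaled library sizes. A floor of 3 counts equals 0.266 to 0.475 CPM in corpuscles and 0.135 to 0.227 CPM in skin. Floors and counting intervals, which are exact at a confidence level of 95%, allow for no error beyond counting. No 2 libraries of a tissue agreed within sampling noise, with a lowest chi-square per degree of freedom of 11.6. In counts simulated for corpuscle against skin, over 14638 genes, the fit called 58 of 100 genes changed 4-fold and 6 of 100 changed 2-fold, with 2 false calls. The simulation gave both tissues the same spread per gene and left all other genes unchanged. The data differ in both respects, so these rates do not describe the contrast of corpuscle and skin.

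The precursors and all gene lists were chosen with earlier results of these data known. Named in the text are the precursors, their receptors in the table, of every other list the up to 3 called genes per direction with the largest change and at least 1 CPM plus the 2 most abundant by FPKM, and the 5 genes nearest to TAC1. Not every gene that this rule names is reported here. GHRL, NPB, RAB3C, TAC3, CRYAA and APOA1 were named after their values were seen. Alternatives were other scalings and filters, DESeq2 1.42.0, a replicate block, thinning to the smallest library, and leaving out libraries. No sequences are shown. Figures were drawn with matplotlib 3.10.9.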

Additional observations from a re-analysis of the deposited data

Results flagged for a closer look

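Of 101 groups of libraries checked with Dixon's test, 20 had 1 library far from the others. Chance alone gives about 1 in 20 groups if the values are normally distributed. The test was run on CPM without a log, and their distribution was not checked, so no excess over chance is read from the 20. No explanation was tested for any of the 20.

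Among the precursors this was corpuscle 4, at 15.5 CPM for SST, where the next corpuscle stood at 0.810 CPM, and at 27.2 CPM for NPY, where the next stood at 4.42 CPM. Corpuscle 4 was also far above the other corpuscles in VIPR2 at 106 CPM, SSTR4 at 288 CPM and ECE2 at 10.4 CPM. It was the smallest library. Corpuscle 2 was far above the others in CHGA at 5761 CPM, GALR3 at 76.3 CPM, PCSK2 at 17.4 CPM and CCKAR at 9.22 CPM. Corpuscle 5 was far above the others in CPD at 26.4 CPM and NPY5R at 15.6 CPM.

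Among skin libraries, skin 1 stood apart in TACR1 at 21.0 CPM and ADCYAP1R1 at 2.51 CPM, and skin 2 in PCSK1 at 3.55 CPM, OPRD1 at 28.2 CPM and GALR2 at 1.84 CPM. Skin 3 stood apart in SSTR4 at 24.6 CPM and OPRM1 at 5.92 CPM on the high side and in VIPR2 at 18.3 CPM on the low side. Skin 4 was the highest in ARFIP1 at 199 CPM.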

How the results depend on the processing

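Over the alternatives the log2 fold change of ADCYAP1 ran from 2.02 to 2.71, of CCK from 3.87 to 4.42 and of GAL from 2.19 to 3.06, which is description since these genes were chosen on this contrast. VIP was at 0.50 on the log2 scale without corpuscles 4 and 5, and NPY ran from -0.72 without corpuscles 4 and 5 to 1.49.

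The 21 calls among other precursors became 40 with every gene of at least 1 count, 39 with DESeq2, 10 after thinning to the smallest library and 4 with a mean of at least 5 CPM. These settings also changed how many genes were tested. The 12 calls among receptors became 4 with a mean of at least 5 CPM. Leaving out 1 library gave 6 to 10 calls among peptidases, the highest without corpuscle 2, against 6 with all libraries.

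Of the 6 receptors that did not pass the test 5 changed sign, and the cause was not tested. The exception, OPRD1, stayed between -1.21 and -0.47 and was called lower in 5 alternatives. TACR2 was at -0.16 without skin 5 and 6, and -0.12 to 0.29 with 1 library left out. VIPR2 was at 0.18 with upper-quartile factors, 0.027 without the 20 most abundant genes, 0.24 with a mean of at least 5 CPM and 0.14 after thinning, and -1.86 to 0.21 with 1 library left out. SSTR1 was at -0.0146 with total counts only, -0.053 with every gene of at least 1 count, -0.41 without corpuscles 4 and 5, -0.060 without skin 5 and 6, and -0.34 to 0.21 with 1 library left out. NPY2R was at 0.13 after thinning. NPY5R was at -1.78 without corpuscles 4 and 5, and -1.69 to 0.67 with 1 library left out.

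The labels do not say whether replicate numbers pair corpuscle with skin libraries. Same-numbered libraries correlated at -0.18 to 0.18 in their deviations from the tissue means. With the large spread among corpuscles, such values cannot tell whether the libraries were paired. With a replicate block 7037 genes were called (3485 higher and 3552 lower in corpuscles), against 8263 without it (4826 and 3437). The block gave 16 calls among other precursors, 11 among receptors, 11 among processing enzymes, 10 among vesicle genes and 9 among peptidases, and NPY was at -0.14, SSTR1 at -0.0674 and NPY5R at -0.81. The median log2 fold change of the 11492 genes in every fit moved by -0.30 with the block, 0.23 with a mean of at least 5 CPM, 0.16 after thinning, 0.14 with upper-quartile factors and -0.13 without skin 5 and 6.

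Depth limits CCK, PENK, GAL, VIP and SST, which had 120 reads or fewer over all corpuscles.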
